A study of Mus musculus with 2254 samples.

Results

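The clustered protocadherin genes were followed in single cells of adult mouse brain. They were taken as every table row whose symbol begins with Pcdha, Pcdhb or Pcdhg followed by a, b, c or a digit, which gave 59 of 30950 rows: 15 alpha, 22 beta and 22 gamma rows. The cells were sorted by fluorescence from C57BL/6 reporter mice (SM22-Cre;Rosa26-stop-tdTomato), in which a smooth muscle promoter switches on a red protein, and each was sequenced separately by Smart-seq2, a full-length cDNA method. The series compared Notch3 KO cells with Notch3 WT cells, and mice of either genotype carried the same reporter. By the cell names, 1127 cells each were KO and WT. Each genotype filled 3 plates, numbered 043, 467 and 471 for KO and 044, 468 and 469 for WT, and plate values below follow that order. No animal was named, so each genotype counted as 1 sample, no statistical test between genotypes was possible, and plates were compared by their values and by whether they overlapped.

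Clustered protocadherins are cell surface adhesion proteins of the cadherin superfamily that pair with the same isoform on a neighbouring cell. In the alpha and gamma clusters each gene has its own promoter and its own large first exon, which is spliced to constant exons used by every gene of that cluster, while beta genes are complete within their own exon. Neurons are known to choose a small, variable set of promoters per cell, with CTCF and cohesin holding the chosen promoter to an enhancer, and the chosen set gives a neuron a surface identity used in self-recognition. The last genes of the alpha and gamma clusters are the C-type genes (Pcdhac1, Pcdhac2, Pcdhgc3, Pcdhgc4 and Pcdhgc5), which are chosen more regularly than the others. No row carried the symbol Pcdhgc4.

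On the GRCm38 assembly, with GENCODE M21 gene models, 55 of the 59 rows matched 1 model each. All lie on the plus strand of chromosome 18, with the alpha genes from 36930184 to 37187661, the beta genes from 37264938 to 37524479 and the gamma genes from 37661793 to 37841873. The alpha models share 2860 exon bases with one another and the gamma models share 2116. A gene's own exon bases number 2485 in the median alpha gene, 3714 in the median beta gene and 2622 in the median gamma gene. The rows Pcdha4.1, Pcdha11.1 and Pcdhga8.1 carry a suffix that the gene models lack, and Pcdha11 has more than 1 model, so these 4 rows have no coordinates here.

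Of 2254 cells, 2252 had at least 50000 counts and 1000 detected genes and were used, with 50570 to 763059 counts per cell and a median of 291913. Cells were sorted into classes by 6 marker genes, and a cell joined the class of its highest marker when this stood at 50 CPM or more (a gene's count scaled to a common total of counts) and at least 4 times above the other 5. This gave 1152 Myh11 cells (smooth muscle marker), 172 Dcn cells (fibroblast), 258 Aqp4 cells (astrocyte), 179 Cldn5 cells (endothelium), 40 Ccdc153 cells (ependyma), 19 Kcnj8 cells (pericyte) and 432 cells in no class. Many cells in no class, 161 of 432, had Aqp4 within the margin of Ccdc153, so a class of 201 Ccdc153 cells with any level of Aqp4 short of the Aqp4 class was added after these values were seen, as were 39 C1qa cells (microglia or macrophage) and 6 Snap25 cells (neuron) from those left over. The summed CPM of 6 fibroblast markers was 7316 to 9268 over the plates in Dcn cells, against 217 to 329 in Myh11 cells. Only plates 468 and 469, both WT, held 10 or more Aqp4, Cldn5 or C1qa cells, so these classes cannot be told apart from their plates except by comparison with other cells of the same 2 plates. As a check of the labels, Notch3 in Myh11 cells stood at 69.0, 106 and 116 CPM in KO and at 199, 768 and 1120 CPM in WT, with no overlap of plates.

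The gamma rows mostly repeated one another. Each of the 22 rows held between 120758 and 134480 reads over all cells, and 1280 cells (56.8%) had a read in every gamma row. In 1279 of these 1280 cells at least 12 of the 22 rows held exactly the same, lowest, count, and the median cell had 20 rows tied. The lowest count is therefore called the shared level of the cluster, and a row's reads above it are called its own reads. With the shared level of each cell taken once, shared reads came to 120112 over all cells and own reads to 103263, or 0.860 own reads per shared read. Because the shared level is repeated in all 22 rows, own reads made up 3.76% of the reads summed over the gamma rows. The alpha rows showed the same arrangement at a lower level, with a shared level above 0 in 168 cells (7.46%), 5181 shared reads and 4734 own reads. Beta rows had no shared level, and all their reads were taken as their own.

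**Figure D1:**
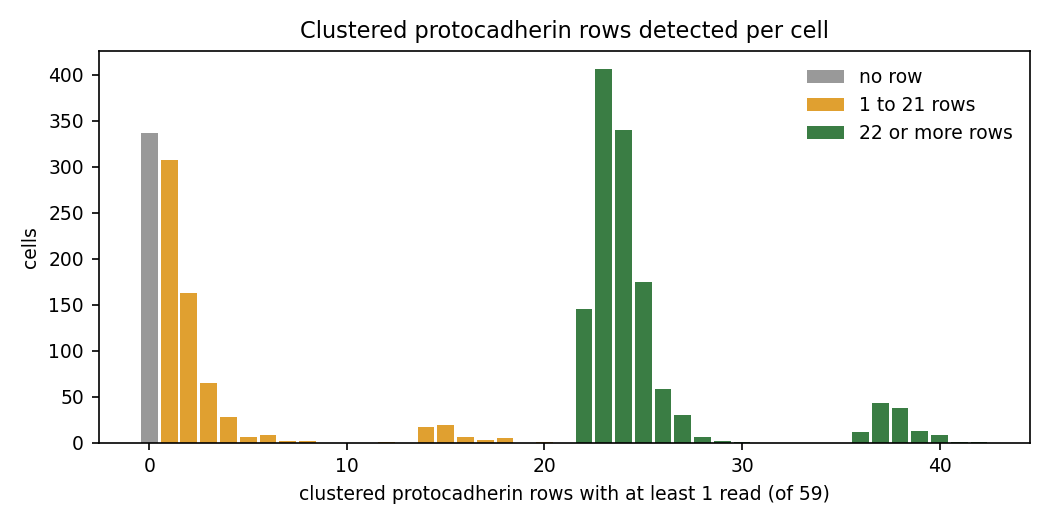
Number of cells (y axis) by the number of clustered protocadherin rows with at least 1 read (x axis, of 59), for the 2252 cells used. Bars are coloured for no row (337 cells), 1 to 21 rows (635 cells) and 22 or more rows (1280 cells), with peaks at 23 rows (406 cells) and 37 rows (43 cells).

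One row went against its name. Pcdha4.1 had reads in 942 cells, all of which also had gamma shared reads, while only 90 of them had alpha shared reads. Its count did not exceed the gamma shared level in 2251 of 2252 cells. Of the gene models, 3 run from the alpha into the gamma cluster, and 446 of the 2856 exon bases of 1 of these, Gm42416, lie inside the exons common to all gamma models. Pcdha4.1 was left out of own reads.

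The shared gamma level, which takes in reads of any gamma gene, differed widely between cell classes. It averaged 444 ± 52.7 CPM (SD over 6 plates) in Ccdc153 cells with any Aqp4 and 318 ± 66.8 CPM (6 plates) in Dcn cells, against 56.2 ± 9.87 CPM (6 plates) in Myh11 cells. The lowest Dcn plate, at 214 CPM, lay above the highest Myh11 plate, at 67.2 CPM. Within plate 468 the level was 427 CPM in Aqp4 cells, 399 in Dcn cells, 372 in Ccdc153 cells with any Aqp4, 108 in Cldn5 cells, 67.2 in Myh11 cells and 20.5 in C1qa cells. Within plate 469 it was 487 CPM in Ccdc153 cells with any Aqp4, 456 in Aqp4 cells, 344 in Dcn cells, 122 in Cldn5 cells, 41.5 in Myh11 cells and 16.6 in C1qa cells. The 3 highest of these classes changed places between the plates, while Cldn5, Myh11 and C1qa cells kept their order below them on either plate.

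**Figure D2:**
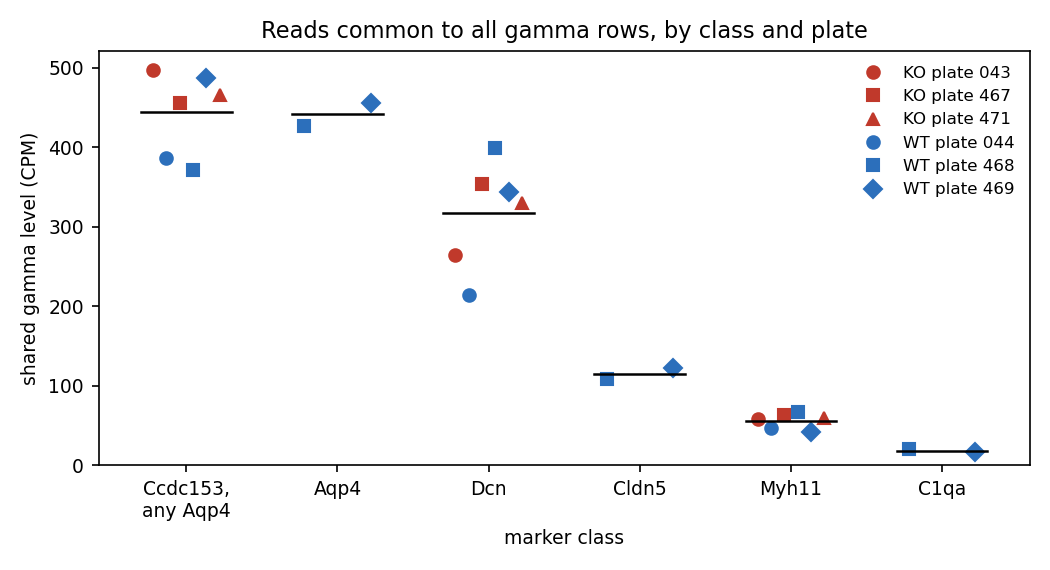
Shared gamma level in CPM (y axis, linear from 0) by marker class (x axis); each point is 1 plate with at least 10 cells of the class, red for KO and blue for WT, and the black line is the mean over plates. No Myh11 or C1qa plate lies above 67.2 CPM, and no plate of the 3 classes on the left lies below 214 CPM.

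The share of cells with shared gamma reads followed the same split. It was 97.0% of 201 Ccdc153 cells with any Aqp4 (exact binomial 95% interval 93.6% to 98.9%), 93.0% of 172 Dcn cells (88.1% to 96.3%) and 91.1% of 258 Aqp4 cells. It was 53.1% of 179 Cldn5 cells (45.5% to 60.6%), 34.6% of 1152 Myh11 cells (31.9% to 37.5%) and 20.5% of 39 C1qa cells (9.30% to 36.5%). Median total counts were 320911 in Dcn, 291096 in Myh11 and 274955 in C1qa cells. The number of genes detected was less alike, with a median of 5946.5 in Dcn and 4385 in Myh11 cells that had shared gamma reads, and its part in the shares was not tested. After every cell was thinned to 50000 counts the shares were 92.4% in Dcn, 86.0% in Aqp4, 42.5% in Cldn5, 28.6% in Myh11 and 7.69% in C1qa cells. The 19 Kcnj8 cells, with no plate of 10, gave 78.9%, with an interval of 54.4% to 93.9%. All intervals cover counting error only, and since several reads can copy 1 molecule they are too narrow even for that.

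The balance of own to shared gamma reads differed between plates as well as classes. Own reads per shared read, pooled over plates, came to 1.95 in Cldn5 cells, 1.08 in Myh11, 0.852 in Dcn, 0.842 in Aqp4 and 0.513 in Ccdc153 cells with any Aqp4. Over the 6 plates of Ccdc153 cells with any Aqp4 the ratio ranged from 0.393 on plate 467 to 0.839 on plate 044. On plates 468 and 469, which hold most Cldn5 cells, it was 1.48 and 2.16 in Cldn5 cells and 1.55 and 2.098 in Myh11 cells, so the pooled gap between these 2 classes was not seen within plates. On the same plates it was 0.540 and 1.09 in Dcn, 0.824 and 0.873 in Aqp4, and 0.491 and 0.646 in Ccdc153 cells with any Aqp4.

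Alpha reads were rare in most classes and more frequent in cells with the ependymal marker and in the few Snap25 cells. Shared alpha reads were found in 24.4% of Ccdc153 cells with any Aqp4 (18.6% to 30.9%), at 34.8%, 23.5% and 25.6% in KO and 30.0%, 25.0% and 10.5% in WT, the lowest being plate 469. The share was 6.34% of Myh11 cells (5.00% to 7.90%), 5.43% of Aqp4 cells, 2.91% of Dcn cells and 2.79% of Cldn5 cells. None of the 39 C1qa cells had them, and 3 of the 6 Snap25 cells did. Alpha own reads were spread thinly: Pcdha4.1 aside, the 14 alpha rows had own reads in 51 cells or fewer each. Among alpha genes Pcdha9 led in Ccdc153 cells with any Aqp4, with own reads in 7 of 201 cells.

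Pcdhac2, a C-type alpha gene known for its part in the spacing of serotonergic axons, was the leading alpha member over all cells, with 2324 own reads in 51 cells. Of these, 36 were Myh11 cells, or 3.12% of that class. In Myh11 cells its own level was 9.04, 4.96 and 2.60 CPM in KO and 6.06, 0 and 5.32 CPM in WT. The genotypes overlapped. The other C-type alpha gene, Pcdhac1, had own reads in 12 cells, 7 of them Myh11 cells.

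Beta genes were detected in most Dcn and Aqp4 cells and in a minority of Myh11 cells. Any beta read was found in 80.8% of Dcn cells, 79.8% of Aqp4 cells, 57.2% of Ccdc153 cells with any Aqp4, 55.9% of Cldn5 cells, 40.7% of Myh11 cells and 28.2% of C1qa cells. The summed beta level averaged 196 ± 83.4 CPM in Dcn cells (SD, 6 plates), 60.8 ± 34.4 CPM in Myh11 cells (6 plates) and 54.5 ± 38.1 CPM in Ccdc153 cells with any Aqp4 (6 plates). Plates of the last 2 classes overlapped, at 28.1 to 123 CPM and 17.3 to 122 CPM, although their shared gamma levels did not. Pcdhb22 was the most often detected beta gene in each of these classes, from 16.6% of Myh11 and 25.0% of Dcn cells to 57.8% of Aqp4 cells. It is a long gene with 6154 own exon bases and shares 455 exon bases with Pcdhb21, and its median in the Aqp4 cells that had it was 2 reads. With at least 3 reads required, Pcdhb22 was found in 24.8% of Aqp4, 11.6% of Dcn and 4.34% of Myh11 cells.

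Pcdhgc3, a C-type gamma gene whose product is known to act on Axin1 and Wnt signalling, was the member with the most own reads, 14368 in 447 cells. It had own reads in 54.7% of Dcn cells (46.9% to 62.2%), 43.8% of Aqp4 cells, 41.3% of Ccdc153 cells with any Aqp4, 15.6% of Cldn5 cells and 4.25% of Myh11 cells (3.16% to 5.58%). The Dcn cells that had it held a median of 21.5 own reads of it, and such Myh11 cells 28. In Dcn cells its own level was 65.6, 29.7 and 61.7 CPM in KO and 47.5, 30.2 and 55.1 CPM in WT. The genotypes overlapped on this measure. The share of Dcn cells with it ran from 25.0% on plate 468 to 75.0% on plate 043. After thinning to 50000 counts the shares were 49.4% in Dcn, 38.8% in Aqp4 and 3.30% in Myh11 cells.

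Pcdhgc5, the other measured C-type gamma gene, was found in a larger pooled share of cells with the ependymal marker than of the other large classes. It had own reads in 23.9% of Ccdc153 cells with any Aqp4 (18.2% to 30.4%), 11.6% of Aqp4, 6.98% of Dcn, 0.608% of Myh11 and 0.559% of Cldn5 cells. In Ccdc153 cells with any Aqp4 the share was 26.1%, 23.5% and 25.6% in KO and 50.0%, 8.33% and 15.8% in WT. The highest and lowest were thus both WT plates, with 10 and 12 cells. On plates 468 and 469, the only ones with 10 or more Aqp4 cells, the share in Aqp4 cells was 11.3% and 10.3%, above that of Ccdc153 cells with any Aqp4 on the one and below it on the other.

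The gamma genes with the highest mean own reads were not the same in every class, but single genes varied widely between plates. Before scaling by length, Pcdhgb7 in Dcn cells ran from 0.76 CPM on plate 471 to 35.9 CPM on plate 043. In Myh11 cells Pcdhga7 ran from 0.12 to 10.9 CPM and Pcdhga11 from 0.59 to 10.6 CPM. Means for Aqp4 and Cldn5 cells rest on plates 468 and 469 alone, those of the other classes named here on 6 plates. Per kilobase of own exon, own reads in Dcn cells averaged 14.3 CPM for Pcdhgc3, 7.53 for Pcdhgb6 and 7.29 for Pcdhgb7. In Aqp4 cells the same measure was 19.7 for Pcdhgc3, 13.8 for Pcdhga7 and 9.18 for Pcdhga12. In Ccdc153 cells with any Aqp4 Pcdhgb7 stood first at 25.1, ahead of Pcdhgb6 at 13.4 and Pcdhgc3 at 8.13. Pcdhgb7 had own reads in 41.8% of these cells (34.9% to 48.9%), and on every plate in at least 30.6% of them. In Cldn5 cells the first places went to Pcdhga7, Pcdhga11 (5.88) and Pcdhgb2 (5.10), with Pcdhgc3 at 4.93. In Myh11 cells they went to Pcdhgb6 (3.21), Pcdhga7 (2.04) and Pcdhga11 (1.92), with Pcdhgc3 at 0.947. Pcdhga4 and Pcdhgb1, whose exons overlap, were left out of this ranking. Pcdhga8.1, which has no gene model to scale by, averaged 44.2 CPM of own reads in Aqp4 cells, against 11.2 CPM in Dcn and 1.25 CPM in Myh11 cells. In the order of the rows it stands between Pcdhgc3 and Pcdhgc5, and which gene it measures was not tested.

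**Figure D3:**
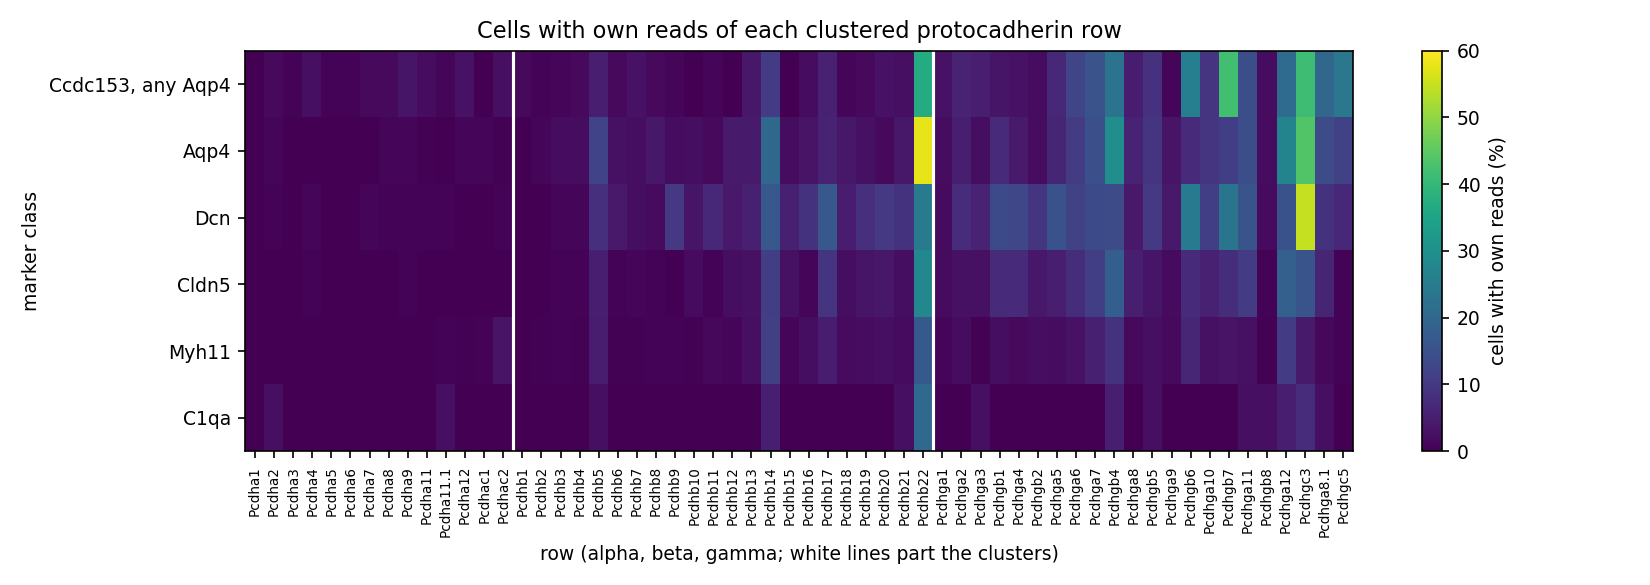
Percent of cells with own reads (colour, 0 to 60%) for 58 rows (x axis, alpha, beta and gamma from left to right) in 6 marker classes (y axis). Pcdhgc3 is bright in the 3 upper classes and dark in Myh11 cells, Pcdhgb7 is brightest in Ccdc153 cells with any Aqp4, and Pcdhb22 is the brightest beta row in every class.

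The number of gamma genes with own reads per cell was small in every class and spread widely over genes. Dcn cells had 2.85 gamma genes on average, with 30.2% of cells at 2 genes, 21.5% at 3 and 30.8% at 4 or more. Myh11 cells had 0.655, with 54.9% of cells at none, 29.6% at 1 and 0.781% at 4 or more. Aqp4 cells had 2.42, and Cldn5 cells lay between Aqp4 and Myh11 cells, with 23.5% at none and 33.0% at 1. The variance of the number over cells, divided by its mean, was 0.924 in Dcn, 1.06 in Aqp4, 1.17 in Myh11 and 1.27 in Cldn5 cells. The member with the most own reads differed between cells. Among 136 Dcn cells with at least 50 own reads over all members, 36 different members stood first in at least 1 cell. Among 313 such Myh11 cells, 47 did. How far the sampling of few molecules per cell varies the leader was not tested. The most frequent leader, Pcdhgc3 in Dcn cells, led in 10.3% of them, and Pcdhb14 led in 12.8% of the Myh11 cells.

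**Figure D4:**
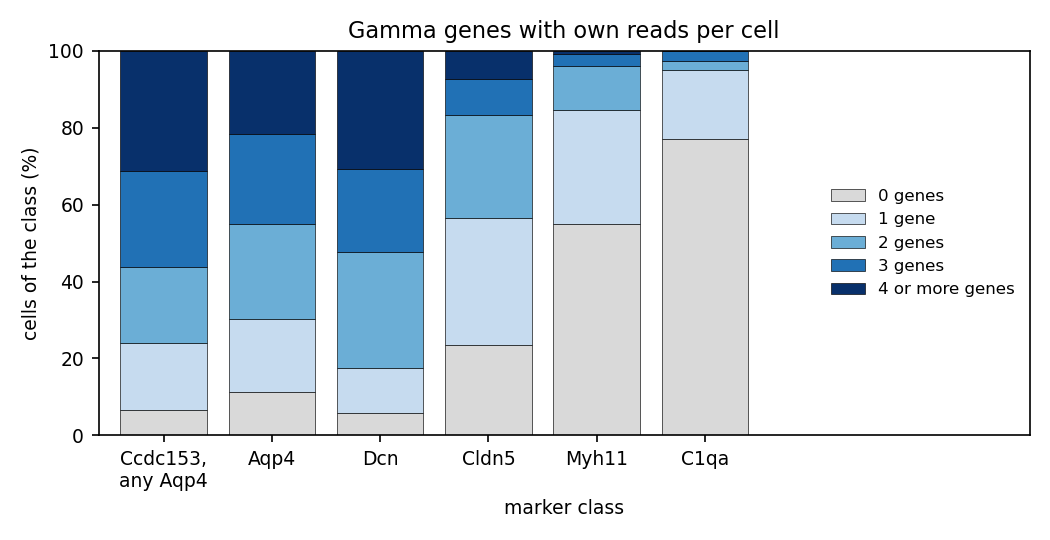
Percent of cells (y axis, stacked to 100%) with 0, 1, 2, 3 or 4 or more gamma genes above the shared level, by marker class (x axis). Cells at 0 make up 54.9% of the Myh11 class and 5.81% of the Dcn class.

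The top member's share of own reads was larger in Myh11 than in Dcn cells. In cells with at least 50 own reads, the top member held 84.2 ± 3.91% of them in Myh11 cells (SD over 6 plates, from 79.0% to 90.2%) and 55.0 ± 3.43% in Dcn cells (6 plates, from 49.9% to 58.5%), with no overlap of plates. In 57.8% of those Myh11 cells 1 member held over 90% of own reads, against 5.88% of those Dcn cells. On the deposited rows, where shared reads count in every row, the corresponding means were 36.5 ± 6.89% and 13.0 ± 5.40%. The Myh11 mean on these rows was lower at a higher read minimum, as given in the closing section. Myh11 cells also had fewer gamma genes with own reads, at 0.655 per cell against 2.85 in Dcn cells. A cell with only 1 member detected gives that member all of its own reads. How far this accounts for the larger share in Myh11 cells was not tested. Inside the Myh11 class, at least 3 beta reads were found in 21.8% of 399 cells with shared gamma reads (17.8% to 26.2%) and 24.7% of 753 cells without (21.7% to 27.9%), and these intervals overlapped.

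Genes found together in a cell were counted by their distance along the gamma cluster. In Myh11 cells the 20 neighbouring pairs were found together, at 3 or more own reads each, in 34 instances, where the product of each gene's share of cells gives 9.44. Of the 34, 10 belonged to Pcdhgb1 and Pcdhga4, which share 1038 exon bases beyond the constant exons, and 10 to Pcdhgb4 and Pcdhga8, which share 108. The other 18 pairs, which share at most 3 bases, gave 14 instances, against 8.64 from the product. In Dcn cells those 18 pairs gave 33 against 33.6, in Aqp4 cells 58 against 48.4 and in Cldn5 cells 18 against 9.59. In Myh11 cells gamma pairs 2 or 3 genes apart gave 15 against 16.9. Those 4 or more apart gave 91 against 62.2, so counts above the product were not limited to neighbours there. Beta neighbours without shared exon bases gave 15 against 3.40 in Myh11 and 12 against 9.52 in Dcn cells. Beta pairs 2 or 3 apart gave 11 against 9.23 in Myh11 and 15 against 21.7 in Dcn cells. Those 4 or more apart gave 31 against 24.1 and 60 against 67.6. These counts are a description and were not tested.

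Between genotypes, the plates overlapped in shared gamma level in each of the 3 classes that could be compared. The level in Myh11 cells was 57.9, 63.6 and 59.8 CPM in KO and 47.3, 67.2 and 41.5 CPM in WT. WT plates lay on either side of the KO plates. In Dcn cells it was 264, 354 and 329 CPM in KO and 214, 399 and 344 CPM in WT, and the ranges overlapped. In Ccdc153 cells with any Aqp4 it was 497, 456 and 465 CPM in KO and 386, 372 and 487 CPM in WT, which again overlapped.

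In Myh11 cells no member differed between genotypes by the size rule, which asked for a 2-fold difference of the mean log2(CPM + 1) over plates, no overlap of plates and a mean of at least 1 CPM. None of the 50 member rows that reached 1 CPM was called, against 4.37% of all 15065 genes tested (3.22% higher and 1.15% lower in KO). By own reads the count was also 0, of 34 members. With a difference of any size, plates did not overlap in 1 of the 50 rows, Pcdha4.1, against 9.75% of all genes (5.79% with KO higher). A log2 value on this scale understates the change of low genes. Without WT plate 044 the count was 6 of 50, against 12.9% of all genes, without KO plate 471 it was 5 (6.41% of all genes), without KO plate 467 it was 2 (5.98%) and without WT plate 469 it was 1 (8.04%). The number of member rows detected per Myh11 cell overlapped as well, at 9.99, 9.60 and 10.2 in KO and 8.51, 9.88 and 10.6 in WT. When a row needed 3 reads, the plates no longer overlapped, with 8.37, 7.85 and 7.79 rows in KO and 7.01, 4.79 and 5.68 in WT. They also parted at 10 reads, with 7.37, 6.74 and 6.95 rows in KO and 6.22, 4.68 and 4.27 in WT, and after thinning to 50000 counts, with 8.34, 8.22 and 7.88 against 6.94, 6.29 and 5.97. Shared gamma levels of 1 or 2 reads were held by 17.6% and 17.7% of Myh11 cells on WT plates 468 and 469, and by 4.73% to 6.93% on the other 4 plates. The summed CPM of 6 pericyte markers also parted the plates of this class, at 1468 to 2092 in KO and 1044 to 1399 in WT with 4 of 6 genes higher in KO, as did that of 6 fibroblast markers, at 309 to 329 and 217 to 296 with 5 of 6 higher. None of these markers was at 0 over all plates of a genotype. Their part in the result, and that of the low read numbers, was not tested.

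In Dcn cells the plates parted in how many rows were detected. The mean was 24.7, 24.4 and 24.1 rows per cell in KO and 21.7, 19.1 and 19.7 in WT. Every KO plate lay above every WT plate, with a difference of 4.25 rows, against an SD over plates, pooled over the genotypes, of 0.969. The difference was 3.07 between plates 043 and 044 and 4.85 among the other 4 plates. Since the 22 gamma rows appear together, a cell without shared gamma reads lowers this mean by many rows at once. Such cells were 2 of 60, 0 of 36 and 1 of 29 in KO and 2 of 15, 4 of 20 and 3 of 12 in WT. Counted by own reads instead, the difference was 0.63 genes per cell, and the plates overlapped. The median number of all genes detected per Dcn cell was 6238, 5554 and 6275 in KO and 6054, 4906 and 5340 in WT, and its part in the result was not tested.

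Of the 56 member rows that reached 1 CPM in Dcn cells, 4 were called higher in KO and none lower, against 7.36% of all 15868 genes tested (4.91% higher and 2.45% lower in KO). Over all these rows together the members' share was near the background. The 22 gamma and 14 alpha rows tested, which mostly repeat a shared level, gave no call. Of the 19 beta rows tested, 4 were called. A beta row can reach 1 CPM through the genotype in which it is high. With a difference of any size, plates did not overlap in 5 of the 56 rows, the 4 called and Pcdhb11, against 10.5% of all genes (6.54% with KO higher). All 4 were beta genes. Pcdhb9 stood at 71.5, 33.8 and 27.6 CPM in KO and had no read on any WT plate, with reads in 17 of 125 KO cells (13.6%) and 0 of 47 WT cells, which allows a share of cells with a read of up to 6.38% in these 3 plates, for counting error only. It was not absent from WT cells of other classes, where 4 of 255 Aqp4 cells had it. Pcdhb12 stood at 12.4, 9.57 and 8.22 CPM and Pcdhb18 at 8.62, 8.07 and 3.54 CPM in KO, and neither had a read in WT Dcn cells. They had reads in 7 and 8 of 125 KO cells and 0 of 47 WT cells, with the same limit. Pcdhb5 stood at 2.21, 0.23 and 13.4 CPM in KO and 0.17, 0.21 and 0.22 CPM in WT. Of its KO reads 1 cell held 63.7%, and without KO plate 471 its log2 difference fell below the size rule, to 0.73.

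By own reads a gamma gene joined them, so that 5 of 40 members tested were called, all higher in KO, against 7.37% of 15853 genes (4.92% higher). This was Pcdhga11, at 4.68, 5.19 and 42.6 CPM of own reads in KO and 1.69, 0.82 and 2.59 CPM in WT, in 23 of 125 KO and 4 of 47 WT cells. Without KO plate 467 the number of deposited rows called was 11 of 55, against 10.6% of all genes, and without WT plate 044 it was 7 of 56, against 19.9%. The median log2 difference over the 19 beta genes tested in Dcn cells was 1.12, against 0.12 over all genes tested. Of the 19, 18 had the higher mean in KO. In Myh11 cells this median was 1.195 against 0.047, with 11 of 13 beta genes higher in KO. In Ccdc153 cells with any Aqp4 it was -0.337 against 0.18, with 5 of 13 higher. A gene can reach the 1 CPM filter through the genotype in which it is high. These values thus describe the genes that passed and support nothing more. Summed over beta genes in Dcn cells the plates overlapped, at 251, 223 and 246 CPM in KO and 155, 43.8 and 256 CPM in WT.

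**Figure D5:**
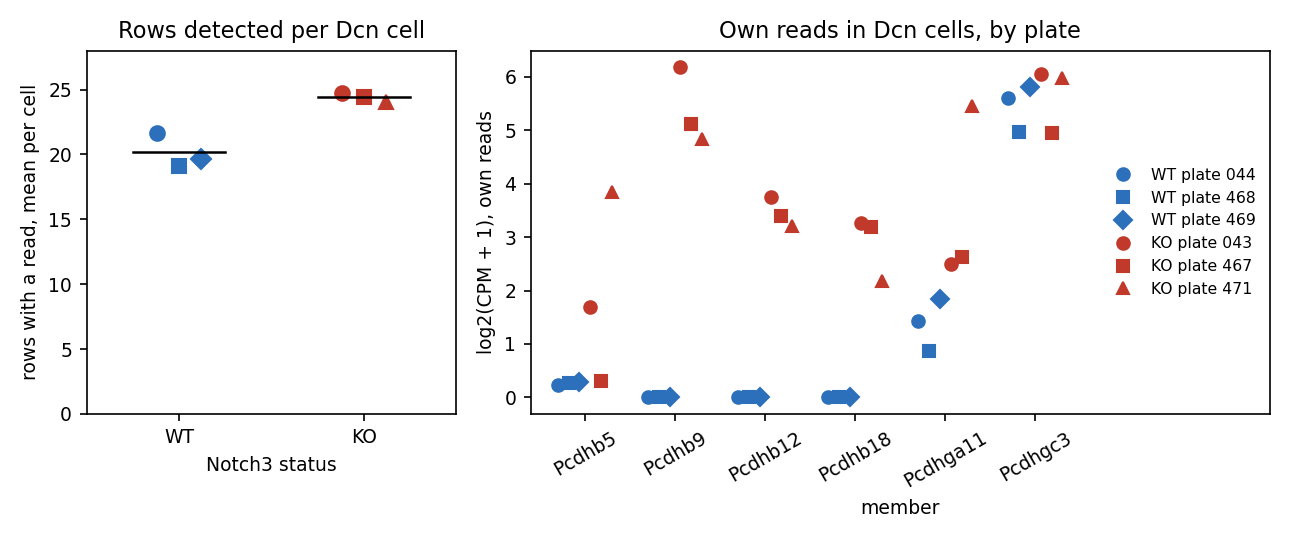
Left, mean number of member rows with a read per Dcn cell (y axis from 0) for each plate of WT and KO cells (x axis), with black lines at the mean over plates; right, log2(CPM + 1) of own reads (y axis) of the 5 members called in Dcn cells and of Pcdhgc3 (x axis) for each plate. The 3 KO plates lie between 24.1 and 24.7 rows per cell, above all WT plates, and the WT points of Pcdhb9, Pcdhb12 and Pcdhb18 are at 0.

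Other cell markers also moved with genotype in Dcn cells. The 6 smooth muscle markers summed to 808 to 1407 CPM in KO and 146 to 502 CPM in WT, with 5 of 6 genes higher in KO, and the 4 choroid plexus markers to 138 to 205 CPM and 54.9 to 136 CPM, with 2 of 4 higher. None of these markers was at 0 over all plates of a genotype, and their part in the beta gene values was not tested. The 6 fibroblast markers overlapped, at 7316 to 8148 CPM in KO and 7657 to 9268 CPM in WT. The 5 microglia or macrophage markers overlapped too, at 2.99 to 310 CPM in KO and 13.2 to 1447 CPM in WT, with 0 of 5 higher in KO. Among other lists whose plates overlapped, 1 of 6 pericyte and 5 of 6 ependymal markers were higher in KO. The part of these markers in the number of rows detected was not tested.

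In Ccdc153 cells with any Aqp4, 2 of 50 member rows tested were called, Pcdhb17 and Pcdhb8, both higher in KO, against 7.39% of 16552 genes tested (6.02% higher and 1.38% lower in KO). No other row had plates without overlap, against 11.3% of all genes at any size (7.91% with KO higher). The count was 1 without KO plate 043 (12.5% of all genes), 4 without WT plate 044 (16.8%), 4 without WT plate 469 (17.3%) and 6 without WT plate 468 (12.7%). Pcdhb17 stood at 25.3, 7.62 and 1.2 CPM in KO and 0, 0 and 0.44 CPM in WT, with reads in 9 of 160 KO and 2 of 41 WT cells. Pcdhb8 rested on 3 KO cells, 1 on each plate. By own reads Pcdhgc3 and Pcdhga6 were added, giving 4 of 37 against 7.41% of 16540 genes (6.03% higher in KO). Pcdhgc3 stood at 60.5, 25.0 and 32.1 CPM of own reads in KO and 19.7, 3.46 and 24.1 CPM in WT, in 73 of 160 KO and 10 of 41 WT cells. The lowest KO plate, at 25.0 CPM, thus lay just above the highest WT plate, at 24.1 CPM. In this class the smooth muscle markers ranged from 1001 to 1519 CPM in KO and 59.9 to 1199 CPM in WT, with 6 of 6 higher in KO. The 6 fibroblast markers, from 34.2 to 76.7 CPM in KO and 1.15 to 47.0 CPM in WT, were also all higher on average in KO, as were 5 of 6 astrocyte markers. None of the markers of these 3 lists was at 0 over all plates of a genotype, and their part in the values was not tested.

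Genes known to serve promoter choice in the clusters were read from a fixed list. Of its 15 genes, including Ctcf and the cohesin subunits Rad21, Smc1a and Smc3, none was called in Myh11, Dcn or Ccdc153 cells with any Aqp4. Over all genes tested, 4.37%, 7.36% and 7.39% were called in these classes, so few calls would be found among 15 genes at the background share. Their median log2 difference was 0.03 in Myh11, 0.15 in Dcn and 0.18 in Ccdc153 cells with any Aqp4. Over all genes tested it was 0.05, 0.12 and 0.18. Across classes Ctcf stood at 48.4 CPM in Dcn, 55.3 in Myh11, 63.0 in Aqp4 and 101 in Cldn5 cells. Of 16 partner and processing genes, 15 were tested in each class, with 1 called in Myh11, 1 in Dcn and 0 in Ccdc153 cells with any Aqp4. The shares of all genes called were those given above. Prkca (protein kinase C alpha) was called higher in KO Myh11 cells, at 9.82, 35.7 and 10.2 CPM against 8.53, 3.23 and 1.00 CPM. Fyn, a tyrosine kinase, was called higher in KO Dcn cells, at 16.8, 22.9 and 14.6 CPM against 11.3, 8.02 and 0 CPM.

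Protocadherins outside the clusters had their own class patterns. Pcdh18 averaged 279 CPM in Myh11, 40.4 in Dcn and 6.36 in Aqp4 cells, whereas Pcdh9 and Pcdh10 reached 249 and 214 CPM in Aqp4 and 1.70 and 1.65 CPM in Myh11 cells. The single calls that follow stand beside 4.37%, 7.36% and 7.39% of all genes called in Myh11, Dcn and Ccdc153 cells with any Aqp4. Of 12 listed genes 7 were tested in Myh11 cells, and Pcdh7 was called higher in KO, at 13.7, 4.06 and 3.62 CPM against 3.54, 3.46 and 0.61 CPM. In Dcn cells 5 were tested and Pcdh18 was called higher in KO, at 63.3, 52.3 and 53.7 CPM against 32.9, 12.5 and 27.4 CPM. Of 8 classical cadherins, 6 were tested in Myh11 and 7 in Dcn cells. Cdh6 was called lower in KO Myh11 cells, at 70.0, 37.3 and 77.8 CPM against 132, 134 and 118 CPM. Cdh1 (E-cadherin) was called lower in KO Dcn cells, at 0, 1.15 and 0 CPM against 58.5, 117 and 32.0 CPM. In Ccdc153 cells with any Aqp4, 10 of the listed protocadherins and 5 of the classical cadherins were tested. Pcdh10 was called higher in KO there, at 41.8, 55.8 and 111 CPM against 24.1, 23.0 and 24.5 CPM. Cdh4 (R-cadherin) was also called higher, at 22.3, 10.2 and 8.03 CPM against no read in WT. Cdh1 reached 50 CPM in 6 of 47 WT and in none of 125 KO Dcn cells. Without those 6 cells, a choice made after these values were seen, the Dcn difference in rows per cell was 4.22, as against 4.25 with them.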

How the data were processed

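Read counts for each gene and cell were used as the authors deposited them. The submitters' processing notes name TopHat2 2.1.1, SAMtools 0.1.18 and featureCounts of Subread 1.4.6-p5, with GRCm38 (mm10). Annotation, strand setting and treatment of reads overlapping several genes: not given in the sources used here. No column belonged to another sample (0 columns), and 0 cell columns were identical. The members, lists and rules were chosen with earlier results of these data known. Counts were summed per plate and class, over plates with at least 10 cells, and divided by the summed totals to give CPM. The shared level was the lowest count over the rows of a cluster in a cell, and its separation from own reads was chosen after seeing the data. Named genes were the C-type genes, the leading members of each class, every member past the size rule and the called genes of each list. Scripts were tested on simulated data. Python 3.11.15, numpy 2.4.6, pandas 2.3.3, scipy 1.17.1, R 4.3.3 and edgeR 4.0.16 (TMM factors, as an alternative) were used. Intervals are exact (Clopper-Pearson) at 95%. The limit beside a share of 0 is not such an interval but 3 divided by the number of cells, an approximate upper bound.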

Additional observations from a re-analysis of the deposited data

How the results depend on the processing

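No paired analysis was possible because no result comes from a test and plates carry no number that pairs KO with WT. Of 143 alternatives for the values above, 89 gave the same result, 47 moved and 7 reversed, and for single genes 265 stayed the same, 7 passed the size rule anew and 8 no longer did. Counting own reads, chosen after seeing the data, gave 4.30, 1.39, 2.20 and 3.84 members per cell in Dcn, Myh11, Cldn5 and Aqp4 cells, and top member shares of 55.0%, 84.2%, 71.5% and 62.9%. At 200 reads or more the top share was 15.1% in Myh11 and 9.45% in Aqp4 cells on the deposited rows. Members per cell in Myh11, Cldn5 and Aqp4 cells were 6.91, 9.34 and 21.1 at 3 reads or more, 6.04, 8.39 and 19.8 at 10 or more, and 7.27, 9.83 and 21.1 after thinning. A marker margin of 2 times gave Cldn5 cells 15.7 members and a shared gamma level of 99.2 CPM. The KO minus WT difference in members per cell was 5.25 (3 reads), 3.07 (plates 043 and 044) and 0.626 (own reads) in Dcn cells, and 2.18 (3 reads), 1.75 (thinned), 1.49 (plates 043 and 044), -0.343 (the other 4 plates) and -0.0129 (own reads) in Myh11 cells. In Ccdc153 cells with any Aqp4 it was -0.126 on the other 4 plates and -0.271 by own reads. Leaving out single plates gave 3.75 to 5.01 in Dcn, -0.309 (without WT plate 044) to 0.729 in Myh11 and -0.465 (without KO plate 043; -0.382 without WT plate 469) to 0.720 in Ccdc153 cells with any Aqp4. Members past the size rule in Dcn cells numbered 1 at a mean of 10 CPM (6.20% of all genes), 27 on plates 043 and 044 (33.2%), 7 on the other 4 plates (23.6%) and 4 to 11 without single plates (4 without KO plate 043, 12.0%; 11 without KO plate 467, 10.6%). In Myh11 cells they numbered 1 with no filter (2.47%), 1 at a margin of 10 times (4.49%), 7 on plates 043 and 044 (10.9%), 5 on the other 4 plates (14.2%) and 0 to 6 without single plates (0 without KO plate 043, 7.36%, or WT plate 468, 5.82%; 6 without WT plate 044, 12.9%). In Ccdc153 cells with any Aqp4 they numbered 0 at a mean of 10 CPM (5.60%), 8 on plates 043 and 044 (43.2%), 4 by own reads (7.41%) and 1 to 6 without single plates (12.5% and 12.7%). Fewer plates make it easier for genotypes not to overlap; the cause of the other shifts was not tested. Reads per cell limit what can be seen, since a gene at 1 or 2 reads in a cell can be missed in the next.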
